A study of Mus musculus with 36 samples.

Results

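Fibroblasts co-cultured with tumour clone E were compared with fibroblasts co-cultured with tumour clone N, which makes 8 libraries (4 for each clone) of the 36 in the series. The 36 libraries form 9 groups of 4: fibroblasts grown alone (mono-culture), fibroblasts grown with 1 of 7 tumour clones (H, V, E, T, N, M or K), and fibroblasts grown with KPC1, which the labels do not describe further. Every group used pancreatic fibroblasts of C57BL/6 mice. Co-cultures lasted 48 h, after which the tumour cells, marked by GFP, were removed by flow sorting. Each clone is a single clonal line, so a difference between clones E and N is a difference between those lines and cannot be extended to a kind of tumour. The labels do not say whether the 4 libraries of a group came from separate cultures, and p-values therefore measure the spread between these libraries, which may be technical.

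The pair was selected on the readout described here. The study places clones E, H and V in its first metabolic class and clones K, M, N and T in the second, and E and N were chosen because their fibroblast profiles lay close to each other although the classes differ. The values that chose the pair are the log2 fold changes between its 8 libraries. Those fold changes are given as a description with their standard errors (SE), and no p-value of a gene is given for them. An adjusted p under 0.05 in the edgeR quasi-likelihood model served as the cut-off that selected genes to describe, not as evidence that the clones differ, and a small number of selected genes was favoured by the choice of a close pair. Tests are given for comparisons with other groups. A gene selected for a difference between E and N is favoured to differ from mono-culture with one of them, since these comparisons share the libraries of E or N.

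Fibroblasts are the main matrix-producing cells around pancreatic tumours. In contact with tumour cells they can turn on contractile and matrix genes, cytokines and growth factors, and they signal back through secreted and membrane-bound ligands of the BMP, activin, Wnt, Notch and PDGF families. Proteins outside the cell tune these signals, such as Notum, which removes the lipid that Wnt ligands need for activity.

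The libraries held 14772803 to 21621983 counts with clone E and 15029467 to 19671579 with clone N, within a range of 12532122 to 21985538 over the 36. Levels are given as CPM, counts scaled to library size with TMM factors, and a gene with at most 3 counts in each library of a group was treated as at the floor. The labelled cell type was checked on 13 fibroblast markers, all of which passed the filter on low counts. Their summed level was 23730 to 34934 CPM with clone E, 26452 to 31590 CPM with clone N and 24329 to 26189 CPM alone. The range with clone E overlapped the others, while every clone N library lay above every mono-culture library. Between the clones their log2 fold changes ran from -0.44 to 0.46. Col1a1, the main fibrillar collagen chain, had a log2 fold change of -0.01 (SE 0.20).

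RNA of epithelial type was present in both co-cultures. Of 24 epithelial tumour cell markers, 7 had no count in any mono-culture library, 5 had none with clone E and 5 had none with clone N, and 14 of the 24 passed the filter. The summed level of the 24 was 9.2 to 12.5 CPM alone, 282 to 538 CPM with clone E and 467 to 722 CPM with clone N, and the ranges of the clones overlapped. Krt8, a keratin of simple epithelia, stood at 110.2, 82.1, 152 and 100 CPM with clone E and at 159.7, 188, 137 and 139 CPM with clone N, and the highest of the mono-culture libraries had 2 counts. In sorted bulk samples, fewer cells of a type and less RNA per cell cannot be told apart. Endothelial, leukocyte, acinar and Schwann cell markers each summed to at most 15.1 CPM in any library of the clones. Pericyte and smooth muscle markers summed to 362 to 634 CPM with clone E and 316 to 498 CPM with clone N, against 108 to 120.5 CPM alone. Most of this was Notch3 (medians 439, 420 and 94.5 CPM with E, with N and alone) and Mcam (68, 42.3 and 9.23 CPM). The medians of Myh11, Kcnj8 and Abcc9 were also higher in both co-cultures, those of Rgs5 and Cspg4 were lower, and Des was alike. Mesothelial markers summed to 22.7 to 49.3 CPM and 30.1 to 40.1 CPM, against 8.59 to 15 CPM alone. This was nearly all Msln (35.2, 32.2 and 11.6 CPM), while Upk3b was lower in both co-cultures and the other members were at the floor.

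Over 14439 genes tested, the root mean square log2 fold change between clones E and N was 0.423, the smallest of the 21 pairs of clones, which restates how the pair was chosen. The next pairs were K and M at 0.452 and H and V at 0.465, each of a single class, and the farthest were V and M at 1.02. Clone E lay at 0.511 from M, 0.523 from T and 0.546 from K, all of the second class. From H and V, of its own class, clone E lay farther, at 0.724 and 0.805. Clone N lay at 0.509 from T, 0.591 from M and 0.667 from K of its own class, and at 0.766 from H and 0.855 from V. Over genes with a mean of at least 2 CPM in the 36 libraries the value for E and N was 0.274, again the smallest, followed by 0.293 for H and V and 0.318 for K and M. By the number of genes with an adjusted p under 0.05 the order was another one: H and V had 56 (0.388%), of which 37 differed at least 2-fold, against 183 and 98 for E and N. In 90.1% of the genes the fold change between E and N was under 0.5 on the log2 scale in either direction. Between single libraries, over 11731 genes with a mean of at least 2 CPM, the distance was 0.33 to 0.53 for the 16 pairs of an E with an N library (median 0.45). It was 0.331 to 0.409 among clone E libraries (median 0.362) and 0.293 to 0.475 among clone N libraries (median 0.449).

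**Figure D1:**
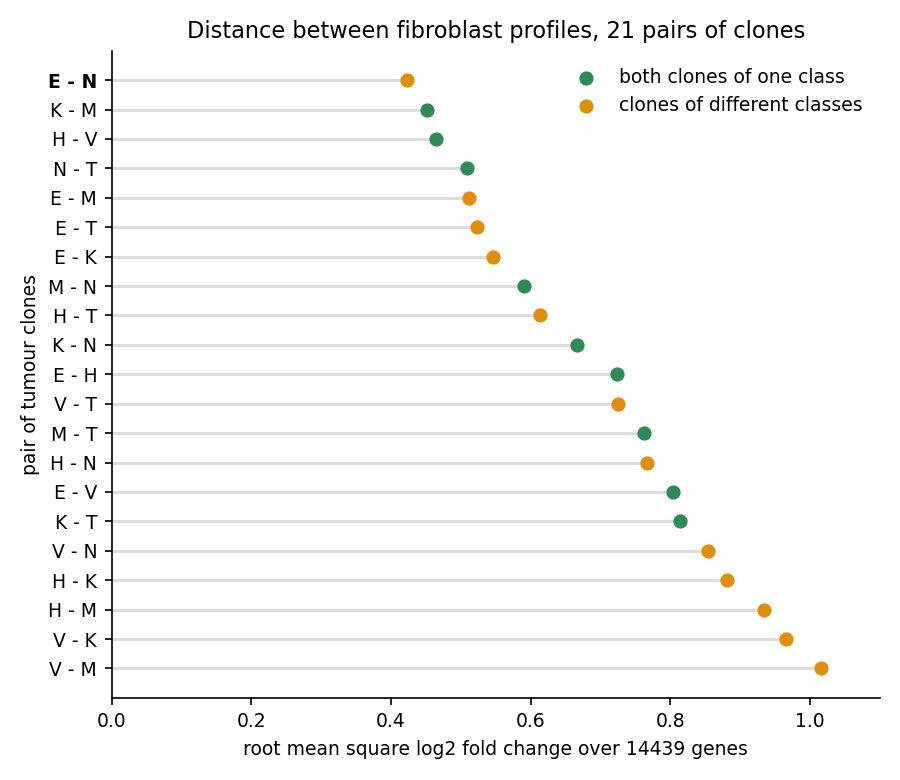
Root mean square log2 fold change over 14439 genes (x axis) for each of the 21 pairs of tumour clones (y axis), coloured by whether both clones belong to the same metabolic class. The pair E and N, at 0.423, has the smallest distance, which is how it was chosen, and its clones are of different classes.

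The cut-off selected 183 genes, 1.27% of those tested: 53 were higher with clone E (0.367%) and 130 lower (0.900%). The count rested on single libraries. It was 88, 101 and 92 without clone E replicates 1, 2 and 4, 304 without clone N replicate 1, and 77, 106 and 94 without clone N replicates 2, 3 and 4, against 150 without clone E replicate 3. Over all genes tested, the 4 libraries of each clone did not overlap for 530 genes with E above N (3.67%) and for 613 with E below N (4.25%). Among the selected genes this was so for 47 of the 53 and 124 of the 130, which the selection on the same libraries largely fixes. With the summed level of the keratins Krt8, Krt18 and Krt19 in each library as a covariate, an alternative chosen after the data were seen, 232 genes passed the cut-off, 169 of the 183 among them.

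The genes lower with clone E had low levels in fibroblasts alone. Their median level was 2.03 CPM in mono-culture, and 41 of the 130 had a mono-culture mean under 0.5 CPM, beside 7.51% of all genes tested. At the floor there were 24 (18.5%, against 1.45% of all genes tested). The mono-culture mean lay below both clones for 96 of them (73.8%), between the clones for 32 (24.6%) and above both for 2 (1.54%). Among all genes tested with a negative fold change the shares were 52.1%, 15.3% and 32.7%. The genes higher with clone E were more abundant than these, with a median of 42.5 CPM in mono-culture. Even so, 9 of the 53 had a mono-culture mean under 0.5 CPM, beside 7.51% of all genes tested. These 9 were among the 13 of the 53 that differed at least 2-fold. At the floor in mono-culture there were 4 of the 53 (7.55%, against 1.45% of all genes tested). Another 39 of the 53 had at least 10 CPM in mono-culture, beside 9405 of the 14439 genes tested, and 1 of those 39, Hic1, differed at least 2-fold. Of the 130 lower genes, 40 had at least 10 CPM in mono-culture, and 2 of those 40 differed at least 2-fold. For the genes higher with E the mono-culture mean lay below both clones for 9 genes (17%), between them for 21 (39.6%) and above both for 23 (43.4%). Among all genes tested with a positive fold change the shares were 33%, 16.1% and 50.9%.

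Of the 23 tested genes of the TGF-beta and BMP list 2, the secreted ligands Bmp2 and Inhba, were among the genes lower with clone E, and 20 of the 23 had a negative log2 fold change (87%, beside 50.2% of all genes tested). Bmp2 (ENSMUSG00000027358, chr2:133552159-133562885 on GRCm38), a ligand of the BMP family, stood at 2.01, 2.54, 3.62 and 2.42 CPM in the clone E libraries, at 8.46, 35.3, 27.2 and 17.7 CPM in the clone N libraries, and at 0.777 to 0.99 CPM alone. No clone E library reached the lowest clone N library, and the log2 fold change was -3.07 (SE 0.56). Against mono-culture Bmp2 rose with clone N, with an edgeR log2 fold change of 4.63 (SE 0.63, adjusted p = 1.07e-06), and with clone E its value was 1.56 (SE 0.63, adjusted p = 0.058). These comparisons share the mono-culture libraries, as do all those against fibroblasts alone that are set side by side here. Inhba, which encodes the subunit of activin A, stood at 23.6, 26, 22.9 and 13.3 CPM with clone E, at 46.5, 33.4, 53 and 40.9 CPM with clone N and at 4.24 to 8.27 CPM alone. The clones did not overlap, and both lay above mono-culture, by 1.61 (SE 0.27, adjusted p = 3.72e-05) with E and 2.62 (SE 0.27, adjusted p = 1.16e-08) with N. With 1 of the 8 libraries left out in turn, Inhba was no longer selected in 7 of 8 cases and Bmp2 in 0.

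Single genes of Wnt and Notch signalling were also among those lower with clone E. Of the 16 tested genes of the Wnt list 1, Notum, was selected, and 13 had a negative log2 fold change, while of the 16 of the Hedgehog and Notch list none was selected and 6 were negative (median 0.09). Wnt10a and Jag2 stand on neither list and are named among the largest differences. Wnt10a, a Wnt ligand, stood at 0.958, 1.25, 1.35 and 0.574 CPM with clone E and at 4.55, 13.6, 5.91 and 3.74 CPM with clone N, and no mono-culture library had more than 4 counts. Notum stood at 1.82, 3.4, 1.96 and 1.79 CPM with clone E, at 9.69, 11.2, 5.44 and 4.31 CPM with clone N and at 0.411 to 1.27 CPM alone, a log2 fold change between the clones of -1.76 (SE 0.35). Both genes were separated between the clones, and both rose against mono-culture with each clone, Wnt10a by 3.71 (SE 0.92, adjusted p = 0.00248) with E and 6.45 (SE 0.87, adjusted p = 8.14e-07) with N, and Notum by 1.47 (SE 0.40, adjusted p = 0.00511) and 3.23 (SE 0.39, adjusted p = 1.21e-07). Jag2, a ligand of Notch receptors, stood at 0.766, 0.527, 0.491 and 0.638 CPM with clone E, at 3.26, 5.52, 5.84 and 4.76 CPM with clone N and at 0.33 to 1.06 CPM alone. Its clone E libraries lay in the range of mono-culture (log2 fold change 0.02, SE 0.53, adjusted p = 0.983) and its clone N libraries above it (3.0, SE 0.48, adjusted p = 7.85e-06). With a library left out, Wnt10a was no longer selected in 4 of 8 cases, Notum in 0 and Jag2 in 0.

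Of the 21 tested inflammatory cytokines and chemokines 2, Il33 and Cxcl16, were among the genes lower with clone E, and 16 had a negative log2 fold change. Il33, an alarmin of the interleukin-1 family, stood at 16.1, 16.1, 16.7 and 21.6 CPM with clone E, at 23.4, 38.7, 37.9 and 55.1 CPM with clone N and at 3.73 to 5.39 CPM alone. Cxcl16, a membrane-bound chemokine, stood at 5.65, 7.34, 7.91 and 5.55 CPM with clone E, at 8.56, 14.2, 16 and 17.2 CPM with clone N and at 5.48 to 6.93 CPM alone. Neither overlapped between the clones, and their log2 fold changes were -1.14 (SE 0.28) and -1.08 (SE 0.26). Il33 rose against mono-culture with each clone, by 1.94 (SE 0.31, adjusted p = 1.98e-05) with E and 3.07 (SE 0.31, adjusted p = 8.98e-09) with N, whereas Cxcl16 rose with clone N (1.23, SE 0.26, adjusted p = 0.000331) and had a value of 0.15 (SE 0.26, adjusted p = 0.719) with clone E. With a library left out, Il33 was no longer selected in 7 of 8 cases and Cxcl16 in 6. Tslp, a cytokine of epithelial and stromal cells that was singled out after its values were seen, had a level of 5.52 ± 0.933 CPM with clone E (mean ± SD, n = 4), 11.6 ± 3.84 CPM with clone N and 1.18 ± 0.188 CPM alone.

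Several of the largest differences lay in genes with other roles. Tnnt2, which encodes cardiac troponin T, stood at 6.94, 4.89, 6.87 and 4.53 CPM with clone E, at 21.1, 42.8, 61.6 and 51.7 CPM with clone N and at 0.605 to 1.9 CPM alone, a log2 fold change between the clones of -2.93 (SE 0.43). Gch1, the first enzyme of tetrahydrobiopterin synthesis, stood at 2.68, 1.92, 3.93 and 3.57 CPM with clone E, at 10.1, 14.8, 17.1 and 18.9 CPM with clone N and at 2.51 to 2.89 CPM alone. For both genes the clones were separated. Tnnt2 rose against mono-culture with each clone, by 2.57 (SE 0.53, adjusted p = 0.000438) with E and 5.50 (SE 0.53, adjusted p = 3.05e-09) with N, and Gch1 rose with clone N (2.5, SE 0.29, adjusted p = 5.4e-08) while its value with clone E was 0.16 (SE 0.30, adjusted p = 0.733). Stc1, the secreted glycoprotein stanniocalcin 1, stood at 6.22, 4.41, 4.23 and 3.45 CPM with clone E, at 12.1, 21.9, 22.6 and 13.6 CPM with clone N and at 0.991 to 1.49 CPM alone, again separated. Pkp1, a desmosomal plakophilin, had a level of 2.64 ± 1.38 CPM with clone E and 14.2 ± 5.45 CPM with clone N (mean ± SD, n = 4). Ifitm1 and Ace were singled out after their values were seen. Ifitm1, an interferon-induced membrane protein, stood at 14.7, 12.1, 28.5 and 17.5 CPM with clone E, at 53.2, 85, 68 and 85.6 CPM with clone N and at 2.04 to 3.25 CPM alone, and Ace, the angiotensin-converting enzyme, at 9.06 to 16.7 CPM with clone E and 32 to 108 CPM with clone N.

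Promoters are shown for Tnnt2 and for Olr1, a receptor for oxidised low-density lipoprotein, because both lie among the 12 named genes with the lowest fold changes and each holds a match to 1 of the motifs searched. The sequences are RefSeq promoters of GRCm38.p6 (250 bases before to 50 after the annotated start, in the direction of the gene), and capitals mark the match. For Tnnt2 (chr1:135836084-135836383, plus strand, the first of its starts) it is the TEAD motif GGAATG on the opposite strand, and for Olr1 (chr6:129507116-129507415, minus strand) the AP-1 motif TGANTCA. Motifs were searched on both strands. The promoters of Jag2, which is also among those 12, and of Gch1, Hic1 and Mybl2 were looked at as well and held no match. The other start of Tnnt2 held none either.
Tnnt2: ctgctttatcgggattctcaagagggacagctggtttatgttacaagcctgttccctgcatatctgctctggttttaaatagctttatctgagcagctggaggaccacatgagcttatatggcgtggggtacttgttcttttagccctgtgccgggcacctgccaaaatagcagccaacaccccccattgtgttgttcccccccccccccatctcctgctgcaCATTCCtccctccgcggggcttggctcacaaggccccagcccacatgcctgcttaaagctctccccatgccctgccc
Olr1: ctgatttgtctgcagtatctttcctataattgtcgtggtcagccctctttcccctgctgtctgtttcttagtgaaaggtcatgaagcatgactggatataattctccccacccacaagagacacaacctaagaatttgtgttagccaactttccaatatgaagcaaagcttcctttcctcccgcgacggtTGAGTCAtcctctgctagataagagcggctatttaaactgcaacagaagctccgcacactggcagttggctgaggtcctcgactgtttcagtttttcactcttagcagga
Of the genes lower with clone E, 86 of 130 had a promoter that was searched, and 20 of them held GGAATG (23.3%), 9 TGANTCA (10.5%), 2 the NF-kB motif GGGANTTCC (2.33%) and 3 the E-box CACGTG (3.49%). Of the genes higher with E, 37 of 53 had a promoter, with 8 (21.6%), 1 (2.7%), 0 and 6 (16.2%) in that order. Among the 9989 tested genes with a searched promoter the shares were 14.5%, 6.42%, 2.68% and 11.6% in the same order. Among all 27025 genes with a searched promoter they were 16.6%, 8.97%, 1.92% and 8.09%. No motif searched contains another, and a match is a description of the sequence, not a site.

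Olr1 and Trbc2, a constant segment of the T cell receptor beta chain, were at the floor in mono-culture. Olr1 stood at 0.622, 0.623, 1.1 and 0.511 CPM with clone E and at 5.34, 20.9, 10.5 and 6.35 CPM with clone N, at least 61.9-fold higher than the mono-culture floor of 3 counts per library with clone N and at least 4.11-fold higher with clone E. Trbc2 stood at 0.335, 0.623, 0.736 and 0.447 CPM with clone E and at 6.73, 9.21, 8.26 and 8.22 CPM with clone N, at least 46.6-fold and 3.08-fold higher than that floor with N and E. The libraries of the clones were separated for both. Ceacam1, a cell adhesion molecule, was at 0.055 to 0.532 CPM alone, in the same range with clone E (0.24 to 0.383 CPM) and at 5.24, 8.72, 4.16 and 1.87 CPM with clone N. Atp2a3, a calcium pump of the endoplasmic reticulum, lay below mono-culture with clone E: its clone E libraries stood at 2.68, 1.53, 1.04 and 1.85 CPM, against 5.61 to 8.09 CPM alone (log2 fold change -1.94, SE 0.36, adjusted p = 0.00011). Its clone N libraries, at 4.65, 21.7, 7.86 and 5.95 CPM, did not pass the test against mono-culture (0.55, SE 0.33, adjusted p = 0.199). Of the same leading set, Pstpip1, a cytoskeletal adaptor, had 1.13 ± 0.515 CPM with E and 7.93 ± 2.77 CPM with N, and Trpm6, a magnesium channel, 1.28 ± 0.334 CPM and 7.64 ± 5.21 CPM. The sodium-proton exchanger Slc9a2 had 0.49 ± 0.529 CPM and 5.96 ± 3.52 CPM, and C130074G19Rik 0.642 ± 0.314 CPM and 8.15 ± 5.4 CPM.

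**Figure D2:**
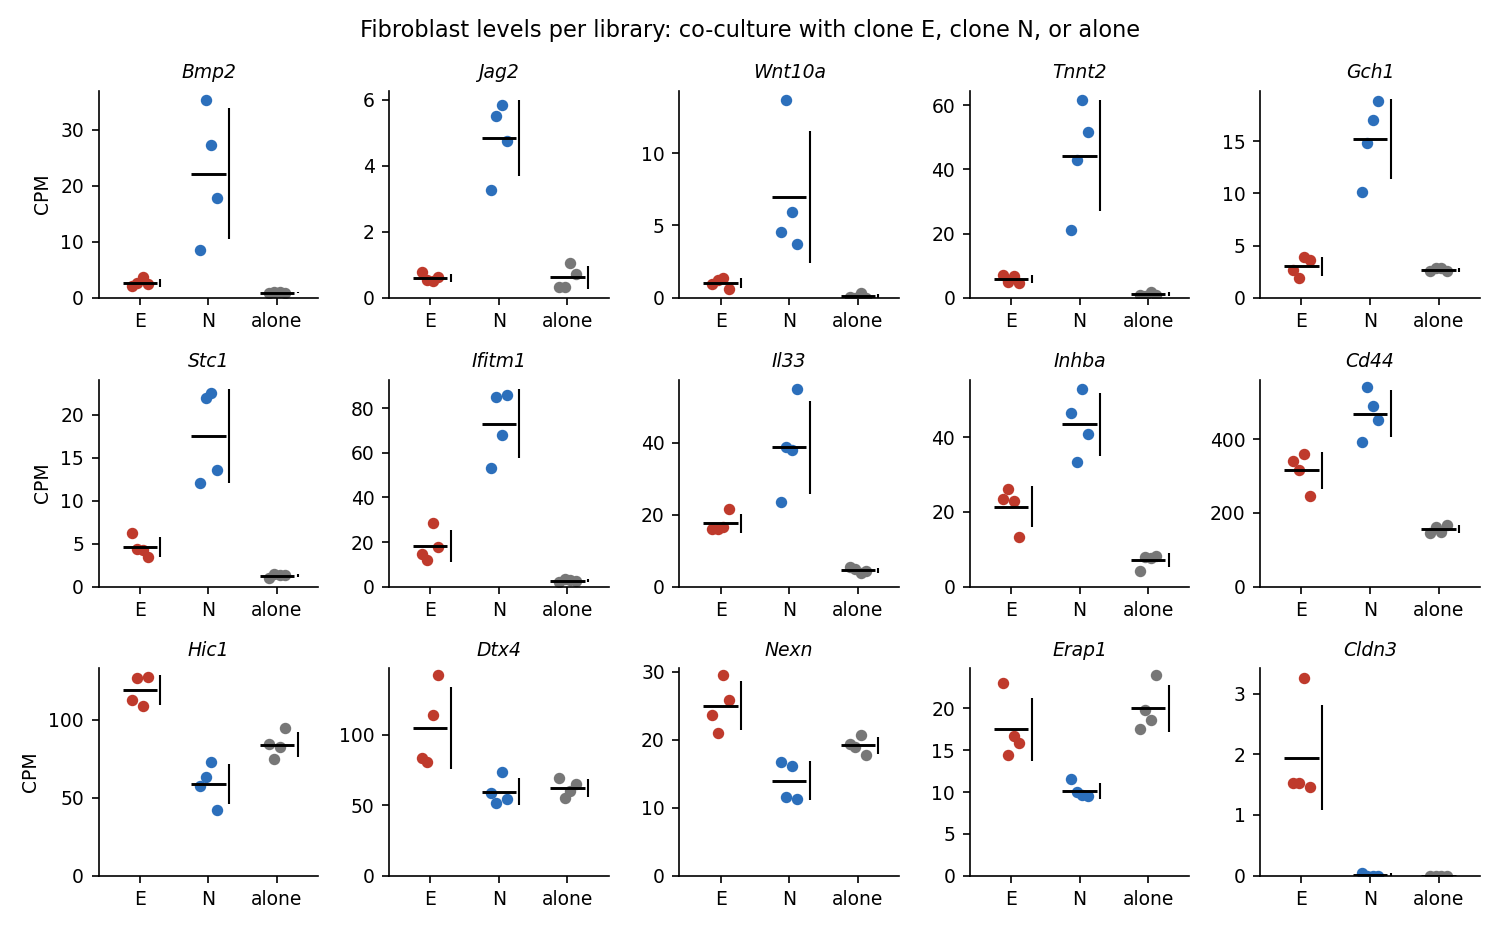
Level in CPM (y axis, from 0) in each library of fibroblasts with clone E, with clone N or alone (x axis); points are libraries, horizontal lines means and vertical lines 1 SD (n = 4). In the upper and middle rows the 4 clone N libraries lie above the 4 clone E libraries, and in the lower row they lie below them.

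Among genes with at least 2 CPM, those higher with clone E were led by Atp8a1 and Hic1. Hic1 (ENSMUSG00000043099, chr11:75164565-75169519 on GRCm38), a transcriptional repressor, stood at 112, 127, 109 and 127 CPM with clone E, at 57.8, 63.4, 72.7 and 42.1 CPM with clone N and at 74.5 to 94.4 CPM alone. Its clone E libraries lay above and its clone N libraries below those of mono-culture. The log2 fold change between the clones was 1.01 (SE 0.23), while against mono-culture the values were 0.50 (SE 0.23, adjusted p = 0.0934) with E and -0.51 (SE 0.23, adjusted p = 0.0779) with N, neither of which passed the test. Nexn, an actin-binding protein, lay the same way, at 23.7, 21, 29.6 and 25.8 CPM with clone E, 16.7, 11.6, 16.2 and 11.3 CPM with clone N and 17.8 to 20.8 CPM alone. With a library left out, Hic1 was no longer selected in 4 of 8 cases and Nexn in 2.

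Atp8a1, a flippase that moves phospholipids across membranes, stood at 3.02, 2.64, 6.38 and 2.94 CPM with clone E, at 0.692, 1.25, 0.604 and 0.51 CPM with clone N and at 0.152 to 0.594 CPM alone. It rose against mono-culture with clone E (edgeR log2 fold change 3.08, SE 0.58, adjusted p = 0.000134), and clone N had a value of 0.81 (SE 0.61, adjusted p = 0.313). Dtx4, a ubiquitin ligase of the deltex family, stood at 83.3, 80.4, 114 and 142 CPM with clone E and at 58.7, 51.4, 73.3 and 54.6 CPM with clone N, and the latter overlapped the 55 to 69.4 CPM of fibroblasts alone. Erap1, which trims peptides for MHC class I, stood at 23, 14.4, 16.7 and 15.9 CPM with clone E, at 11.5, 9.96, 9.6 and 9.53 CPM with clone N and at 17.6 to 24 CPM alone. It fell with clone N against mono-culture (-0.98, SE 0.19, adjusted p = 0.000129), and with clone E its value was -0.19 (SE 0.19, adjusted p = 0.467).

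The remaining named genes of this direction differed by less. Mybl2, a transcription factor of dividing cells, had 29.6 ± 4.11 CPM with E and 20.8 ± 0.884 CPM with N (log2 fold change 0.51, SE 0.11). Dna2, a nuclease and helicase of DNA replication, had 23 ± 2.14 CPM and 14.3 ± 3.15 CPM (0.68, SE 0.17), and Impact, an inhibitor of the kinase Gcn2, 69 ± 5.93 CPM and 45.8 ± 2.18 CPM (0.59, SE 0.15). Lcmt2, Zfp428, E130309D02Rik and BC052040 had log2 fold changes of 0.75 (SE 0.19), 0.65 (SE 0.14), 0.45 (SE 0.10) and 0.44 (SE 0.10). The 4 libraries of each clone did not overlap for any of these 7 genes, which the rule for naming them required. With a library left out, Impact was no longer selected in 7 of 8 cases, Dna2 and Lcmt2 in 6 each, E130309D02Rik and BC052040 in 4 each, and Mybl2 and Zfp428 in 2 each.

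Of the 14 epithelial markers tested, 12 had a lower fitted level with clone E than with clone N and 2, Cldn3 and Cdh3, a higher one (Cdh3 by 0.18, SE 0.39), and the median log2 fold change was -0.45, against 0.00 over all genes. Krt18, a keratin like Krt8, ran from 115 to 225 CPM with clone E and from 206 to 325 CPM with clone N, and Krt19 from 45.7 to 81.9 CPM and from 51.6 to 122 CPM, so both overlapped. Spint2, a protease inhibitor of epithelia, ran from 1.34 to 4.17 CPM with clone E and from 4.8 to 10.4 CPM with clone N and did not overlap. Cldn3, a tight junction claudin singled out after its values were seen, stood at 1.53, 1.53, 3.25 and 1.47 CPM with clone E, had no count alone and at most 1 count with clone N, and was at least 11.4-fold higher with E than the floor with N. The epithelial transcription factors Ehf and Elf3, also singled out, lay the other way: Ehf stood at 2.08, 3.41, 0.671 and 1.42 CPM with clone N, at least 11.4-fold higher than the floor with clone E, and Elf3 had 0.253 ± 0.135 CPM with E and 2.3 ± 1.1 CPM with N. Muc5b, a secreted mucin, and Dsc2, a desmosomal cadherin, were at the floor with clone E and had 1.89 ± 1.23 CPM and 1.0 ± 0.419 CPM with clone N. Of the 14 markers, Cldn3 and Elf3 were among the 183. With the keratin covariate above, all 35 selected named genes still passed the cut-off. That covariate cannot follow epithelial RNA that does not move with the keratins, such as Cldn3 and Elf3, which lay in opposite directions. The part of epithelial RNA in the selected genes was therefore not tested.

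Against mono-culture, 2377 genes were higher (16.5%) and 2245 lower (15.5%) with clone E, and 2848 were higher (19.7%) and 2777 lower (19.2%) with clone N. The share of higher genes among those called was 51.4% for E and 50.6% for N, and by limma-trend on log2(RPKM + 1) it was 39.4% and 39.3%. Of the genes that moved the same way with each clone, the leading ones by the smaller of both fold changes were Krt8, Krt18, Cldn6, Palmd and Nkx6-3 on the higher side and Sprr1a, Rspo2, Cldn1, Slc24a3 and Dpt on the lower side. Krt8, Cldn6, Palmd and Nkx6-3 were at the floor alone. Cldn1, a claudin, fell from 44.8 to 75.9 CPM alone to 3.78 to 8.49 CPM with clone E (-3.39, SE 0.37, adjusted p = 5.06e-08) and 1.34 to 5.42 CPM with clone N (-4.24, SE 0.39, adjusted p = 1.09e-09). Dpt, the matrix protein dermatopontin, had 166 ± 45.8 CPM alone, 25 ± 6.98 CPM with E and 15.6 ± 2.77 CPM with N. Of the 130 genes lower with E than with N, 48 were called higher and 11 lower than mono-culture with E, and 118 higher and 2 lower with N. Of the 53 genes higher with E, 16 were called higher and 12 lower than mono-culture with E, and 2 higher and 33 lower with N. These counts are partly fixed by the selection, which used the same libraries.

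Of 533 tested genes on 30 lists of fibroblast and stress programmes, 1 was among the 53 higher and 10 among the 130 lower, 2.06% beside 1.27% of all genes tested, and their median log2 fold change was -0.04. The lists with a selected gene were TGF-beta and BMP (Bmp2 and Inhba of 23 lower, list median -0.27), Wnt (Notum of 16 lower, -0.32), inflammatory cytokines and chemokines (Il33 and Cxcl16 of 21 lower, -0.29), growth factors and IGF binding proteins (Pdgfc of 22 lower, -0.25), prostaglandin and hyaluronan (Cd44 and Tnfaip6 of 13 lower, -0.25), glycolysis and hypoxia response (Pfkp of 23 lower, -0.07), adipogenic and retinoid genes (Cyp26b1 of 20 lower, -0.05) and MHC class I (Erap1 of 11 higher, -0.08). Cd44, the hyaluronan receptor, stood at 339, 315, 361 and 245 CPM with clone E, at 391, 541, 489.7 and 452 CPM with clone N and at 145 to 167 CPM alone. It rose against mono-culture with each clone, by 1.02 (SE 0.14, adjusted p = 2.21e-06) with E and 1.59 (SE 0.14, adjusted p = 7.23e-10) with N, and with a library left out it was no longer selected in 6 of 8 cases. Tnfaip6, which binds hyaluronan, had 10.9 ± 2.1 CPM with E and 19.1 ± 4.12 CPM with N, Pdgfc, a PDGF ligand, 29.2 ± 4.93 CPM and 41 ± 7.06 CPM, and Pfkp, a phosphofructokinase, 36.2 ± 0.677 CPM and 49.1 ± 7.54 CPM. The libraries of the clones overlapped for Pdgfc and were separated for the others of this paragraph. Cyp26b1, which degrades retinoic acid and was named after its values were seen, had 0.708 ± 0.278 CPM with E and 3.24 ± 1.95 CPM with N.

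The other 22 lists held no selected gene. Since the pair was chosen as close, nothing is read from this, and their values are given as ranges. In the interferon-stimulated list the log2 fold changes of the 26 genes ran from -0.75 to 0.90, 17 positive and 9 negative, with a median of 0.05. Against mono-culture 22 of these 26 fell with clone E (median -1.45) and 23 with clone N (median -1.52), beside 15.5% and 19.2% of all genes tested. In the list of fibrillar collagen and crosslinking they ran from -0.81 to 0.14 over 17 genes, 5 positive and 12 negative (median -0.02). The contractile and myofibroblastic list ran from -0.73 to 0.33 over 14 genes, 8 positive and 6 negative (median 0.01). Of its genes 6 rose against mono-culture with E and 8 with N, beside 16.5% and 19.7% of all genes tested.

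Some of these lists had most members on the same side. In sterol and fatty acid synthesis 23 of 24 genes had a positive log2 fold change (median 0.25). The libraries of the clones did not overlap for 6 of them, beside 1143 of the 14439 genes tested. Against mono-culture 6 of the 24 fell with clone E (median -0.21), and with clone N 16 fell and 1 rose (median -0.58). In DNA replication and mitosis 25 of 30 genes were positive (median 0.12), and against mono-culture 4 fell with E and 11 with N. Over all genes tested 15.5% were lower than mono-culture with E and 19.2% with N. Of the clock output list 12 of 14 genes were negative (median -0.17), and of the respiratory chain 17 of 22 (median -0.13), beside 50.2% of all genes tested. Lss, the sterol cyclase, had 271 ± 32.1 CPM with E, 182 ± 18 CPM with N and 367 ± 46.3 CPM alone, and Rrm2, a subunit of ribonucleotide reductase, 68.5 ± 15.8 CPM, 48.9 ± 8.11 CPM and 54.2 ± 3.64 CPM.

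The integrated stress response, in which the transcription factor Atf4 turns on amino acid synthesis genes, was examined because the classes are metabolic. Between clones E and N 20 of its 25 genes had a negative log2 fold change and 5 a positive one, and the median was -0.15. The libraries did not overlap for 4, beside 1143 of the 14439 genes tested. Asns, asparagine synthetase, stood at 294, 160.2, 176 and 171 CPM with clone E, at 262, 212, 291 and 242 CPM with clone N and at 137 to 205 CPM alone. Ddit3, a transcription factor of this response, stood at 69.8 to 72.8 CPM with clone E, at 89.7 to 149.9 CPM with clone N and at 125 to 140.2 CPM alone, so the clones were separated (log2 fold change -0.66, SE 0.21). The serine synthesis enzymes Psat1 and Phgdh and the mitochondrial enzyme Shmt2 had log2 fold changes of -0.21 (SE 0.17), -0.05 (SE 0.15) and 0.00 (SE 0.22), those of Atf4 and Trib3 were -0.17 (SE 0.14) and -0.45 (SE 0.25), and all 5 overlapped between the clones.

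The other clones of the classes, whose libraries the choice of the pair did not use, were used to see how the pair's genes lay in clones of each class. The mean of clones H and V was set against the mean of clones K, M and T, where 8744 genes differed (60.6%), 4298 higher (29.8%) and 4446 lower (30.8%). The 4 libraries of each clone replicate that clone and not its class. Of the integrated stress response list 24 of 25 genes were higher with H and V and 1 was lower (median 1.09), of the interferon-stimulated list 22 of 26 were higher (1.04), and of DNA replication and mitosis 27 of 30 (0.51). For Asns the edgeR log2 fold change was 1.47 (SE 0.14, adjusted p = 5.92e-10) and for Ddit3 1.42 (SE 0.13, adjusted p = 2.38e-10). The sterol list had a median of -0.01, with 2 genes higher and 7 lower. The mean of clone T was above those of both K and M for 23 of the 25 stress response genes (92%, beside 41.9% of all genes tested), so the clones of the second class were not alike in this list. Ddit3 had 88.6 to 139 CPM with K, 58.2 to 73 CPM with M, 134 to 255 CPM with T, 186 to 353 CPM with H and 259 to 400.2 CPM with V, and Asns 93.5 to 234 CPM with K, 86.9 to 109 CPM with M, 316 to 573 CPM with T, 349 to 521 CPM with H and 431 to 671 CPM with V. Over all genes the root mean square log2 fold change of clone T was smallest from clone N, at 0.509, followed by clone E at 0.523. It was 0.613 from clone H and 0.725 from clone V, against 0.762 from clone M and 0.813 from clone K.

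**Figure D3:**
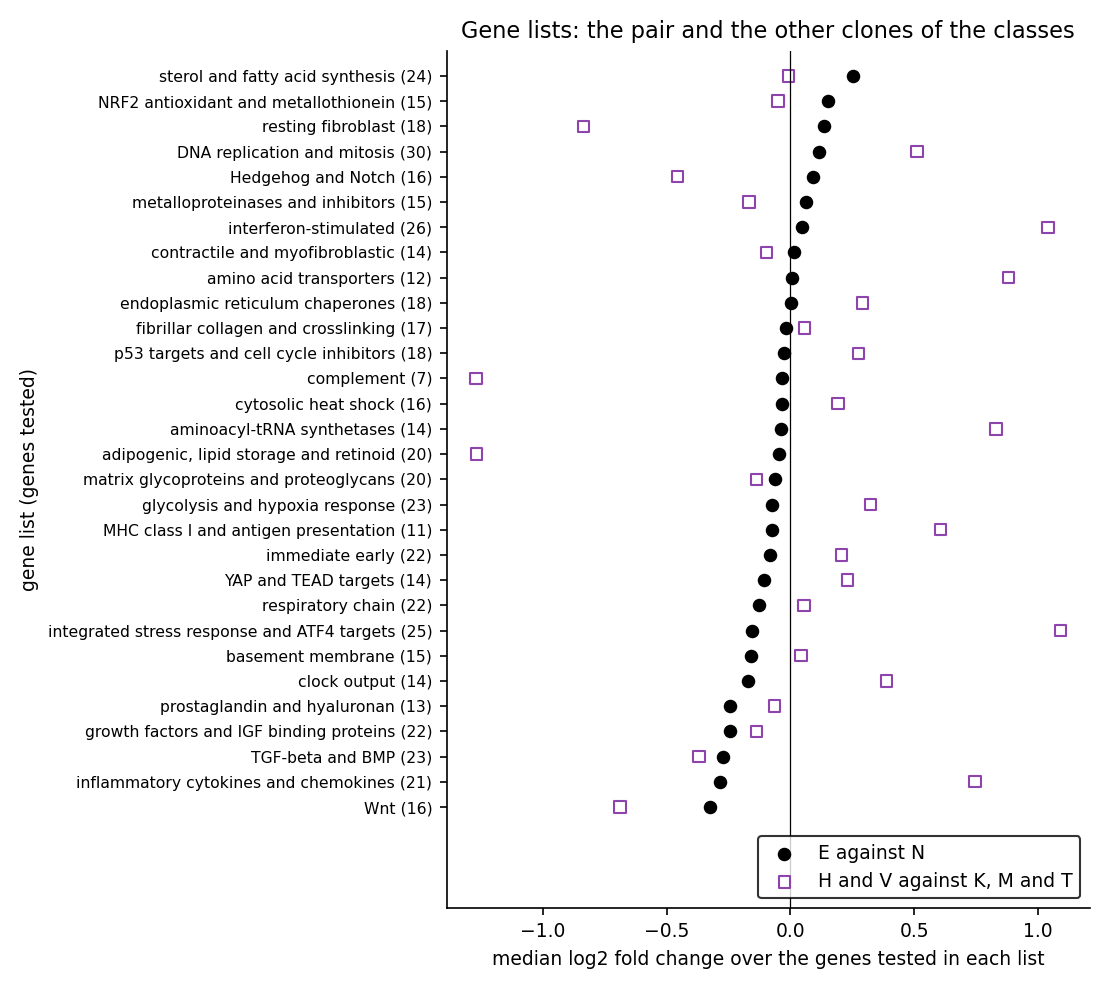
Median log2 fold change (x axis) over the tested genes of each of 30 gene lists (y axis, with the number of genes) for clone E against clone N (filled circles) and for clones H and V against clones K, M and T (open squares). The circles lie between -0.32 and 0.25, and the squares reach from -1.27 (complement, and adipogenic, lipid storage and retinoid genes) to 1.09 (integrated stress response).

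The 183 genes lay in both class directions. Of the 53 genes higher with E, which is of the class of H and V, 21 were higher (39.6%) and 20 lower (37.7%) with H and V, and of the 130 lower genes 41 were higher (31.5%) and 41 lower (31.5%), beside 29.8% and 30.8% of all genes tested. Genes with the same direction in both comparisons included Bmp2, with an edgeR value for H and V against K, M and T of -3.02 (SE 0.47, adjusted p = 2.78e-06), Notum with -2.62 (SE 0.26, adjusted p = 6.01e-10), Ceacam1 with -3.60 (SE 0.47, adjusted p = 9.38e-08), Trpm6 and Pstpip1. Opposite directions included Tnnt2 with 2.41 (SE 0.27, adjusted p = 1.17e-08), Gch1 with 1.23 (SE 0.18, adjusted p = 6.69e-07), Stc1 with 1.31 (SE 0.22, adjusted p = 8.21e-06), Pkp1 and Trbc2. The second class was not alike in some of these genes. Mean Bmp2 was 4.15, 1.03 and 12.3 CPM with K, M and T, against 0.89 and 0.241 CPM with H and V. In the same order Ceacam1 had 0.915, 5.93 and 1.07 CPM, against 0.176 and 0.125 CPM. Notum had 8.79, 8.57 and 2.98 CPM, against 0.818 and 1.18 CPM. Tnnt2 had 2.73, 2.02 and 21.9 CPM, against 25.7 and 26.8 CPM. Il33 and Inhba were lower with E than with N and higher with H and V than with K, M and T, by 1.45 (SE 0.18, adjusted p = 6.35e-08) and 1.15 (SE 0.16, adjusted p = 2.55e-07). Hic1 was higher with E and lower with H and V, at -1.07 (SE 0.15, adjusted p = 6.78e-07).

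**Figure D4:**
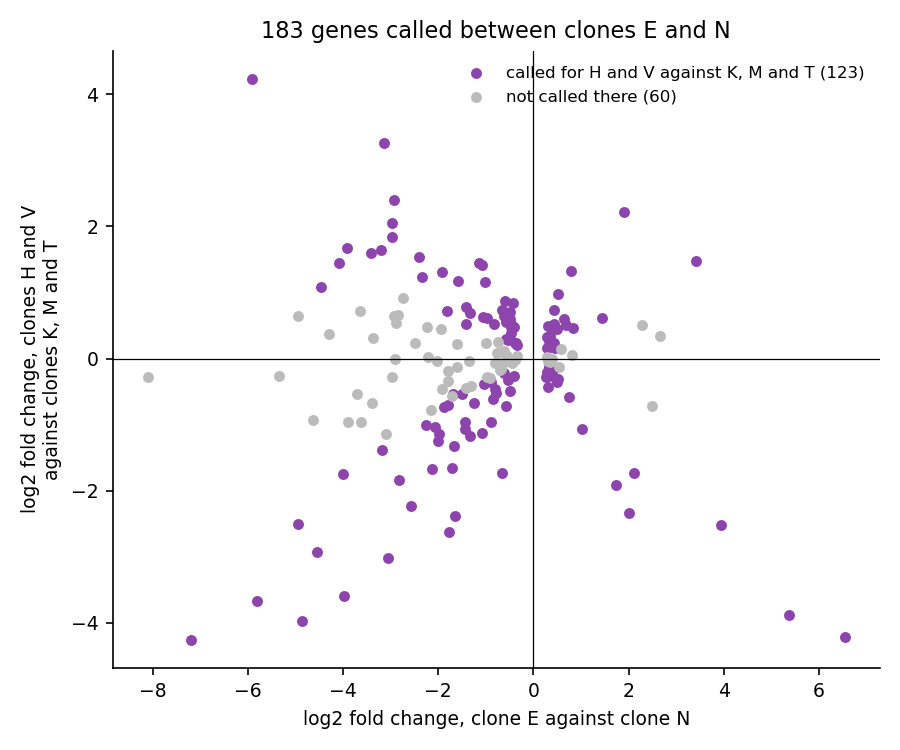
Log2 fold change of clone E against clone N (x axis) and of clones H and V against clones K, M and T (y axis) for the 183 genes selected between E and N; purple marks the 123 that were also called on the y axis. Fitted values of genes at the floor in a group depend on the prior count. The points fill all 4 quadrants, with 41 of the 130 genes on the left called upwards and 41 called downwards.

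Among the 5 other clones, clone T had the highest mean for 72 of the 130 genes lower with E (55.4%), against 14% of all genes tested. A comparison of clone T with the mean of clones K, M, H and V was added because of this count. It restates the count on the same libraries and is given without p-values. Of the 130 genes, 68 passed an adjusted p of 0.05 as higher with T (52.3%, beside 8.92% of all genes tested) and 7 as lower (5.38%, beside 5.14%). Of the 53 genes higher with E, 8 were higher (15.1%) and 10 lower (18.9%). The split depended on the level in mono-culture. At 10 CPM or more there, 19 of 40 genes lower with E and 0 of 39 genes higher with E were higher with T, beside 7.78% of all genes at that level. Under 0.5 CPM there, 21 of 41 genes lower with E and 7 of 9 genes higher with E were higher with T, beside 21% of all genes, so at that level genes of both directions were high with T. The log2 fold change with T was 3.63 (SE 0.39) for Bmp2, 4.46 (SE 0.49) for Slc9a2, 1.91 (SE 0.19) for Gch1, 2.66 (SE 0.42) for Olr1 and 2.81 (SE 0.43) for Trbc2. For Notum, Inhba and Il33 it was 0.03 (SE 0.26), -0.04 (SE 0.20) and -0.52 (SE 0.24). Epithelial marker sums moved with this comparison too: they were 331 to 896 CPM with clone T and 28.8 to 578 CPM over clones K, M, H and V, and their part in it was not tested.

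**Figure D5:**
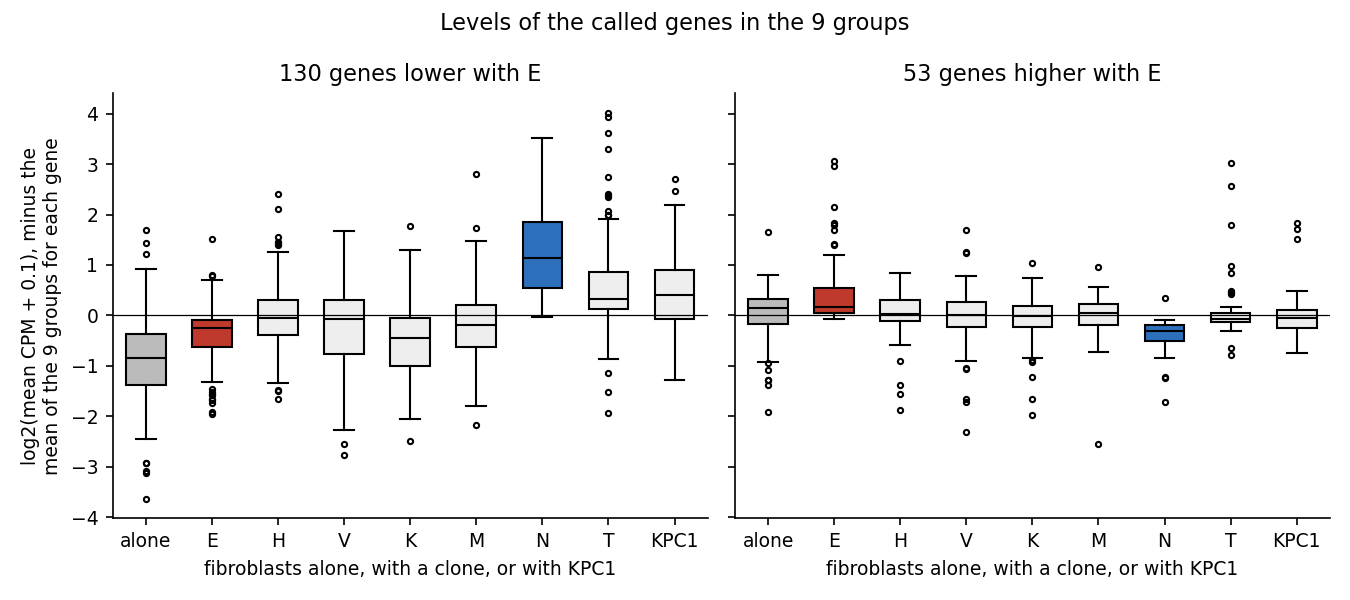
Levels of the 130 genes lower (left) and the 53 genes higher (right) with clone E in the 9 groups (x axis), as log2 of the mean CPM plus 0.1, minus the mean of the 9 groups for each gene (y axis); boxes span the quartiles, and points lie beyond the whiskers. On the left clone N has a median of 1.15, KPC1 0.40, clone T 0.33, clone E -0.26 and fibroblasts alone -0.85.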

How the data were processed

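The authors deposited gene-level read counts as whole numbers (39017 genes) and RPKM values for all 36 libraries. Per the labels, poly(A) libraries were prepared from 200 ng of RNA with a strand-specific kit and 14 amplification cycles, then sequenced as 76 bp paired ends. The submitters' processing notes name STAR, featureCounts, edgeR and mm10; versions, annotation and the strand setting of the counting are not given in the sources used here, so near-identical copies and overlapping genes are uncertain. Columns were matched to groups by title, with 0 value columns left unmapped. Counts were analysed with edgeR 4.0.16 (limma 3.58.1, R 4.3.3): filterByExpr on the 9 groups (14439 genes kept), TMM scaling, quasi-likelihood fit of group means over all 36 libraries, and Benjamini-Hochberg adjustment at 0.05. Log2 CPM for distances between libraries used a prior count of 1. Floors (3 counts) cover counting error only, as amplified reads are not independent molecules. Copies were looked for within the clone E, clone N and mono-culture groups only. The smallest chi-square per degree of freedom there was 5.63, so no library of these groups was a copy of another of its group. Scripts were tested on simulated data.

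The named genes needed a mean of 2 CPM over the 8 libraries. Between E and N an adjusted p under 0.05 (called here) selected genes and was no test. The named genes are the 12 highest and 12 lowest called and separated genes, up to 4 called or else the 2 leading members of each list, 7 stress response genes, 5 genes each with the same and the opposite call between classes, 5 each way called against mono-culture with both clones, and cell type markers. The pair, the lists and the rule were chosen with earlier results of these data known. Positions are from GENCODE M21 (GRCm38) by Ensembl identifier, matched for 266 of 266 genes. Alternatives were DESeq2 1.42.0, other scalings and filters, a threshold of 0.1, a replicate block, fits of the compared libraries, limma-trend on the deposited RPKM (pseudocounts 1 and 0.1), a keratin covariate and omission of each library.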

Additional observations from a re-analysis of the deposited data

Results flagged for a closer look

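In 20 of 218 groups of 4 libraries, 1 library stood apart from the others by Dixon's ratio, the gap to the nearest library over the whole range. Chance flags about 1 in 20 groups. Replicate 2 of clone N was highest for C130074G19Rik (16.2 CPM, ratio 0.940), Pstpip1 (12.1 CPM, 0.954) and Trpm6 (15.4 CPM, 0.857), and replicate 3 of clone E was highest for Pstpip1 (1.90 CPM, 0.868), Trpm6 (1.78 CPM, 0.905) and Atp8a1 (6.38 CPM, 0.899). Single genes stood apart in other libraries: Dna2 in clone N replicate 1 (0.837), BC052040 in clone E replicate 1 (0.839), Notum in clone E replicate 2 (0.891) and Il33 in clone E replicate 4 (0.888), each the highest of its group. In mono-culture the ratio was 0.832 for Tnnt2 (replicate 3, highest), 0.980 for Trpm6 (replicate 4, lowest) and 0.872 for Inhba (replicate 1, lowest).

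Mean log2 CPM over a gene list stood apart in 7 groups. With clone E these were Wnt (replicate 2 highest, 0.875), Hedgehog and Notch (replicate 4 lowest, 0.897), inflammatory cytokines and chemokines (replicate 2 lowest, 0.881), aminoacyl-tRNA synthetases (replicate 1 highest, 0.880) and glycolysis and hypoxia response (replicate 4 highest, 0.867). With clone N they were Hedgehog and Notch (replicate 4 lowest, 0.878) and cytosolic heat shock (replicate 4 highest, 0.943).

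For 4 genes every clone E library lay on one side of all mono-culture libraries and every clone N library on the other. All 4 are among the 183 genes selected between E and N. These libraries chose the pair, so the difference was not tested independently of that choice, and the log2 fold changes between E and N were -2.82 for Pstpip1, -1.69 for Tpd52l1, 0.84 for Nexn and 1.01 for Hic1. Tpd52l1, singled out after its values were seen, was the single gene of all those tested with opposite calls against mono-culture.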

How the results depend on the processing

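The number of genes selected between clones E and N, 183, was the value that moved most with the processing. It was 287 with DESeq2, 307 at a threshold of 0.1, 104 with at least 10 counts required in every library compared, and 77 to 304 with a library left out, the lowest without clone N replicate 2 and the highest without clone N replicate 1. It stayed within 1.5 times of 183 under RLE scaling (186), no scaling (168), no filter (127), a fit of the 8 libraries alone (128), limma-trend on RPKM (218 and 195 with pseudocounts of 1 and 0.1) and the keratin covariate (232). Of the 183 genes, 182 were among those selected by DESeq2, 156 without scaling, 118 without the filter and 92 in the fit of 8 libraries, and no shared gene had the opposite direction. The cause of these shifts was not tested. The share of higher genes was 29% among the 183 and 14.8% among the 128 of the fit of 8 libraries.

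A replicate block raised the count to 392 over 36 libraries and to 642 in the fit of 8 libraries. The labels give every group the same replicate numbers, and the sample numbers of the co-cultures run through all clones once per replicate number, but no label says what a number marks. The deviations of same-numbered E and N libraries correlated at 0.466, 0.129, 0.268 and 0.024 (genes with at least 2 CPM), and number 1 was the single one whose libraries were each other's best partner, so the numbers were not taken as a pairing.

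The distance between E and N was 0.274 over genes with at least 2 CPM, 0.423 and 0.422 with RLE and no scaling, and 0.444 to 0.519 with a library left out, highest without clone E replicate 4. Against mono-culture the count was 3664 to 4312 for E and 4843 to 5625 for N with a library left out, and 4071 to 5584 and 4943 to 6703 under the other alternatives. For H and V against K, M and T it was 8405 to 8847 and 7571 to 9588. No named gene reversed, and 13 of the 35 selected between E and N were selected without each library in turn. Genes near the floor limit what depth can show: 24 of the 130 and 4 of the 53 had at most 3 counts in each mono-culture library.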
